A study of Mus musculus with 18 samples.

Results

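Carbonic anhydrases are zinc enzymes that interconvert carbon dioxide and water with bicarbonate and a proton. The genes described here were chosen by name alone, as every row of the count table whose symbol is Car followed by digits and at most 1 letter. The rule found 8 genes (Car1, Car2, Car3, Car4, Car8, Car9, Car12 and Car13) among the 10897 genes of the table. The GENCODE M21 mouse annotation holds 16 genes of that form, and the other 8 (Car5a, Car5b, Car6, Car7, Car10, Car11, Car14 and Car15) are not analysed here. Every gene of the table had an FPKM (fragment counts divided by transcript length and by library size) of at least 1 in 15 or more of the 18 libraries, so a gene expressed in 1 group alone would be missing. All 8 genes reached that level in all 18 libraries.

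Total RNA from mouse colorectal tissue was depleted of ribosomal RNA and sequenced in 18 strand-specific libraries, 6 for each of the groups GF-AOMS, GF-AOM and Control. Azoxymethane (AOM in the group names) is a carcinogen that causes tumours of the colon, GF is germ-free, and GF-AOMS adds cigarette smoke. The animals were male C57BL/6J mice, wild type, 10 weeks old per the growth protocol, and all libraries are marked as 1 batch. The labels disagree on the groups. By the sample characteristics, Control animals had specific pathogen-free status and AOM-induced cancer, GF-AOM animals were germ-free with AOM, and GF-AOMS animals were germ-free with AOM and smoke, so that all groups share AOM. By the treatment protocol, Control was a normal group without AOM and the others were AOM alone and AOM with smoke, all kept in a pathogen-free facility. Under both readings GF-AOMS and GF-AOM differ by smoke, while what separates either from Control cannot be told from the labels. Nothing says in words that each library is a separate animal, so a p-value here measures only the spread among the libraries, which may be technical.

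In the colon, carbonic anhydrases of the epithelium supply the bicarbonate and protons that apical exchangers trade for chloride and sodium. Car1 and Car2 are cytosolic and are also abundant in red blood cells, Car3 is a low-activity cytosolic enzyme abundant in muscle and fat, and Car13 is a further cytosolic form. Car4 is anchored to the outer face of the cell membrane, Car9 and Car12 are transmembrane enzymes with an outward-facing catalytic domain, and Car8 lacks catalytic activity.

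Libraries held 48.95 to 79.23 M counts (M is mega), and counts of ribosomal protein genes took 4.72% to 23.9% of them. The lowest count of any member in any library was 229, for Car3 in GF-AOM replicate 1. The 4 Control replicates 3 to 6 stood apart from the other 14 libraries in genes that mark the distal colon. Hoxa13 lay at 0 to 3.05 CPM (counts per M counts, after scaling) there, against 42.0 and 38.7 CPM in Control replicates 1 and 2 and 24.8 to 53.5 CPM in the 12 GF libraries. Hoxb13 lay at 2.43 to 2.65 CPM there and at 19.8 CPM or more elsewhere. Hoxd13 is not analysed here. Epithelial markers (Epcam, Cdh1, Krt8, Krt18 and Krt19, 5 of 5 measured) were present in every library, at a summed 4911 to 10400 CPM. The differences of the 8 members from Control are therefore given with and without those 4 libraries. Differences of other genes from Control are given over all libraries, followed by the value or the list's median without the 4 libraries or with a term for them, a choice made after the data were seen.

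The catalytic zinc is held by histidines, of which the first pair lies close together in the coding sequence. The stretch around that pair is shown because the active members other than Car4 share it in the form searched for here. Sequences are coding bases of GENCODE M21 transcripts, 5′ to 3′, with the codons of the first pair of zinc-binding positions in capitals.
Car1: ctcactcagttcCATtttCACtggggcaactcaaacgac
Car2: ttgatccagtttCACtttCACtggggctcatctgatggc
Car3: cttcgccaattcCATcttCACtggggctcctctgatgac
Car13: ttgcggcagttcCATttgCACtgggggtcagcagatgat
Car9: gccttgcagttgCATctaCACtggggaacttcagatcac
Car12: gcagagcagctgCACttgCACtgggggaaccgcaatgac
Both capital codons are histidine codons in the 6 members shown. These windows were found by an in-frame search for CAT or CAC followed by TGGGG, which has no match in Car4. Between members, the coding sequences were 58.9% (Car1 and Car4) to 70.8% (Car3 and Car9) identical over their aligned bases. Gaps were left out of these values, so they do not rank the pairs by relatedness. Car3 and Car9 have 780 and 1311 coding bases, and the longest identical run in their alignment was 6 bases. The longest identical run between any pair was 30 bases, between Car2 and Car13, so only a read of at most 30 bases could match both fully there. How reads matching 2 genes were counted is not given in the sources used here.

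Car13, Car1, Car3 and Car2 form a cluster on chromosome 3, in the order Car13 (14641727 to 14663002, plus strand), Car1 (14766216 to 14808365, minus strand), Car3 (14863512 to 14872523, plus strand) and Car2 (14886273 to 14900770, plus strand). It spans 259.0 kb. Car8 (8143362 to 8239041, minus strand) and Car9 (43506966 to 43513729, plus strand) lie on chromosome 4, Car12 (66713686 to 66766845, plus strand) on chromosome 9, and Car4 (84957786 to 84966044, plus strand) on chromosome 11. These positions are those of the table. They match build GRCm38, although the submitters' processing notes name GRCm39.

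Over all 18 libraries the ratio of highest to lowest FPKM was largest for Car1 (140.7, beside 68.4 for Car3). Within each group that ratio was larger for Car3 than for Car1. The FPKM of Car1 in Control replicates 1 to 6 was 514.2, 453.1, 4021, 13750, 7359 and 4363. In GF-AOM replicates 1 to 6 it was 97.8, 380.8, 221.9, 533.9, 263.8 and 352.2. In GF-AOMS replicates 1 to 6 it was 259.7, 139.8, 600.1, 360.2, 150.2 and 472.5. The 4 Control libraries without distal markers were above all others, and the other 2 Control libraries lay inside the GF range, so Control overlapped both GF groups. Car1 ranked 1st by FPKM among all genes in Control replicate 4, 2nd in replicate 5 and 12th in replicates 3 and 6. It ranked 108th and 162nd in Control replicates 1 and 2, and between 85th and 522nd in the GF libraries.

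Car2, the high-activity cytosolic enzyme, varied far less. Its FPKM was 220.2 to 454.4 in Control (median 295.3), 215.1 to 314.5 in GF-AOM (median 269.0) and 160.9 to 308.7 in GF-AOMS (median 212.1). All groups overlapped, and the highest GF-AOMS library, replicate 1, stood well above the next at 221.9.

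Car3 followed the split of the Control libraries as Car1 did. In Control replicates 1 to 6 its FPKM was 3.51, 1.17, 27.9, 30.5, 19.5 and 80.3. It was 1.30 to 8.90 in GF-AOM (median 2.66) and 1.68 to 9.80 in GF-AOMS (median 4.20). The 4 Control libraries without distal markers were again above all others, and Control replicate 6 was the highest. Markers of fat and skeletal muscle, tissues in which Car3 is abundant, were read beside it. Fat-cell markers (2 of 5 measured, Fabp4 and Cfd) summed to 96.4 to 414.7 CPM in those 4 libraries, to 51.3 and 56.5 CPM in the other 2 Control libraries and to 35.2 to 154.2 CPM in the GF libraries. Control replicate 6 held the highest value of both Car3 and the fat-cell markers. Adipoq, Plin1 and Lep, which define fat cells, are not analysed here. Skeletal muscle markers (2 of 4 measured) summed to 26.0 to 278.9 CPM in Control, 14.7 to 263.7 CPM in GF-AOM and 35.1 to 157.7 CPM in GF-AOMS. No measured marker of either set was at 0 in any library, and the part of these cells in the Car3 level was not tested.

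Car13 lay at 10.2 to 23.7 FPKM in Control (median 16.2), 8.67 to 16.3 in GF-AOM (median 10.8) and 6.09 to 19.5 in GF-AOMS (median 12.9), with overlap between all groups. It sits beside Car1 on the chromosome but did not follow the split of the Control libraries. Control replicate 1 was at 18.5, within the 10.5 to 23.7 of replicates 3 to 6, and replicate 2 at 10.2.

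Among the membrane-bound members, Car4 was at 59.8 to 226.6 FPKM in Control (median 144.5), 47.7 to 190.6 in GF-AOM (median 141.7) and 79.6 to 195.3 in GF-AOMS (median 172.7). Its 2 highest Control values, 226.6 and 185.1, were those of replicates 1 and 2, the reverse of the Car1 order. Car9 was at 15.7 to 30.4 FPKM in Control (median 22.0), 10.1 to 21.4 in GF-AOM (median 15.8) and 8.60 to 36.4 in GF-AOMS (median 24.6). A second gene of the table, Gm12454, overlaps Car9, at 3.28 to 5.80 FPKM, and whether the counting used strand is not given in the sources used here. Car12 was at 6.92, 2.15, 9.93, 16.4, 14.2 and 7.81 FPKM in Control replicates 1 to 6, 2.38 to 8.26 in GF-AOM (median 3.34) and 2.10 to 6.34 in GF-AOMS (median 4.24). Every group overlapped every other for all 3 genes.

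Car8, the inactive member, was at 13.9, 5.64, 44.8, 34.4, 40.4 and 56.8 FPKM in Control replicates 1 to 6. It was at 13.7 to 30.5 in GF-AOM (median 20.4) and 10.3 to 35.4 in GF-AOMS (median 15.8). The 4 Control libraries without distal markers were above the other 2, but the lowest of them lay inside the GF-AOMS range.

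**Figure D1:**
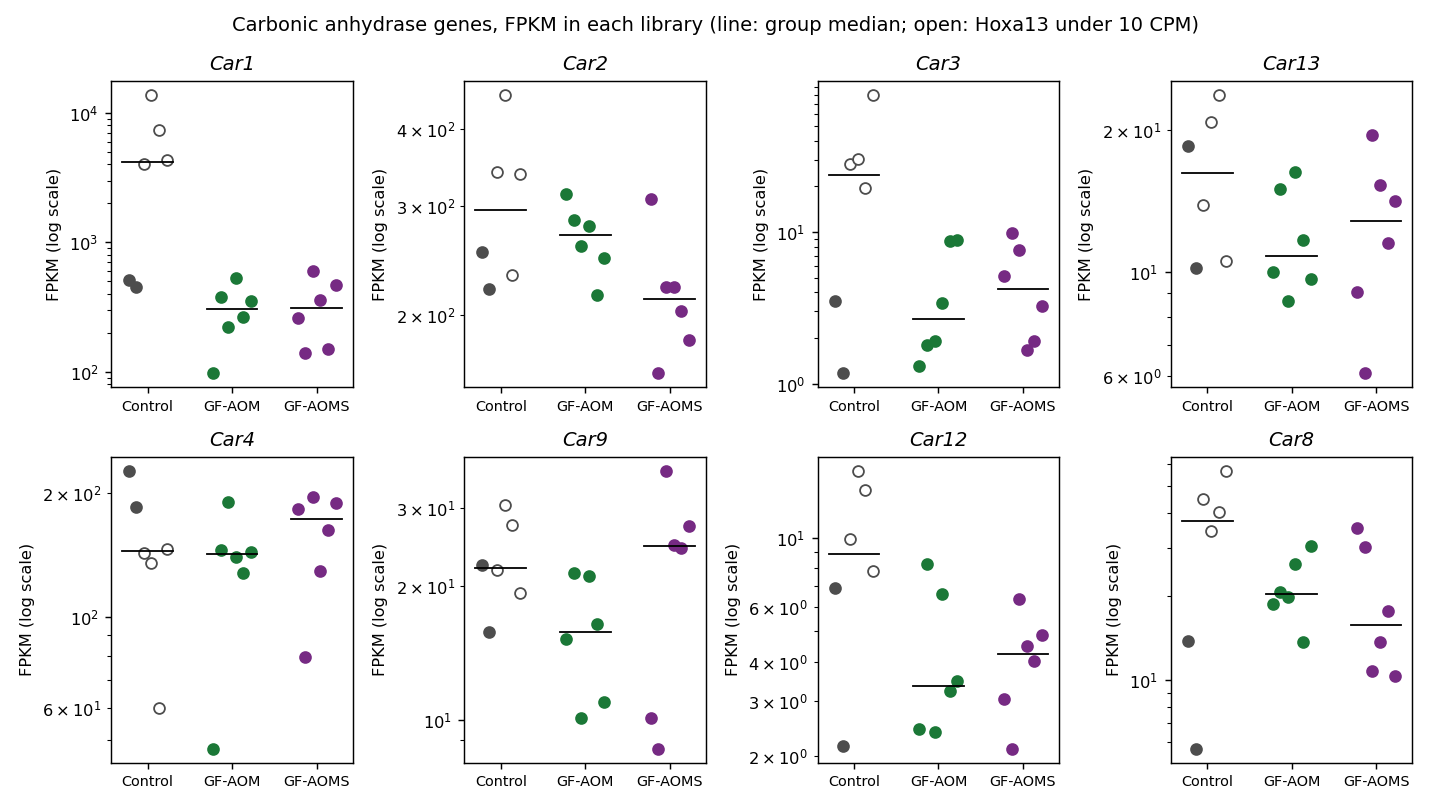
FPKM (vertical axis, log scale) of each carbonic anhydrase gene in every library of the 3 groups; lines are group medians and open circles are the Control libraries with Hoxa13 under 10 CPM. The open circles of Car1 (4021 to 13750) and Car3 (19.5 to 80.3) lie above every filled one, while Car2, Car4, Car9 and Car13 overlap throughout.

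Counted over members, Car1, Car3 and Car12 had all 4 of these Control libraries above the other 14 on the CPM scale, which is 3 of 8 members beside 2.87% of all genes (313 of 10897). On the FPKM scale Car12 in Control replicate 6 (7.81) fell below the highest GF library (8.26). Because the 4 libraries were set apart after their Hox values were seen, and Car1 was known to differ among them, this is a description.

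The order of levels was read from FPKM, which is per length. In the GF libraries it ran, by median, Car1 (308.0), Car2 (234.8), Car4 (144.3), Car8 (19.3), Car9 (18.7), Car13 (11.6), Car12 (3.74) and Car3 (3.33). Several neighbours in that order were not separated: Car1 was above Car2 in 7 of 12 libraries, Car8 above Car9 in 6 of 12 and Car12 above Car3 in 7 of 12. Car4 and Car8 did not overlap, and Car2 was above Car4 in 11 of 12. In Control the order was Car1, Car2, Car4, Car8, Car3, Car9, Car13 and Car12, with Car1 above Car2 in 6 of 6 and Car3 above Car9 in 3 of 6.

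The summed FPKM of the 8 genes was 4624 to 14480 in Control replicates 3 to 6, 1058 and 893.3 in Control replicates 1 and 2, and 437.0 to 1098 in the GF libraries. Car1 made up 86.9% to 95.01% of that sum in the first 4, 48.6% and 50.7% in the other 2 Control libraries and 19.3% to 54.7% in the GF libraries. Without Car1 the sum was 297.1 to 722.2 across all 18 libraries. Car1 was the leading member in 13 libraries, and Car2 led in the other 5, all of them GF. The ratio of Car1 to Car2 ran from 0.311 in GF-AOM replicate 1 to 31.7 in Control replicate 5.

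**Figure D2:**
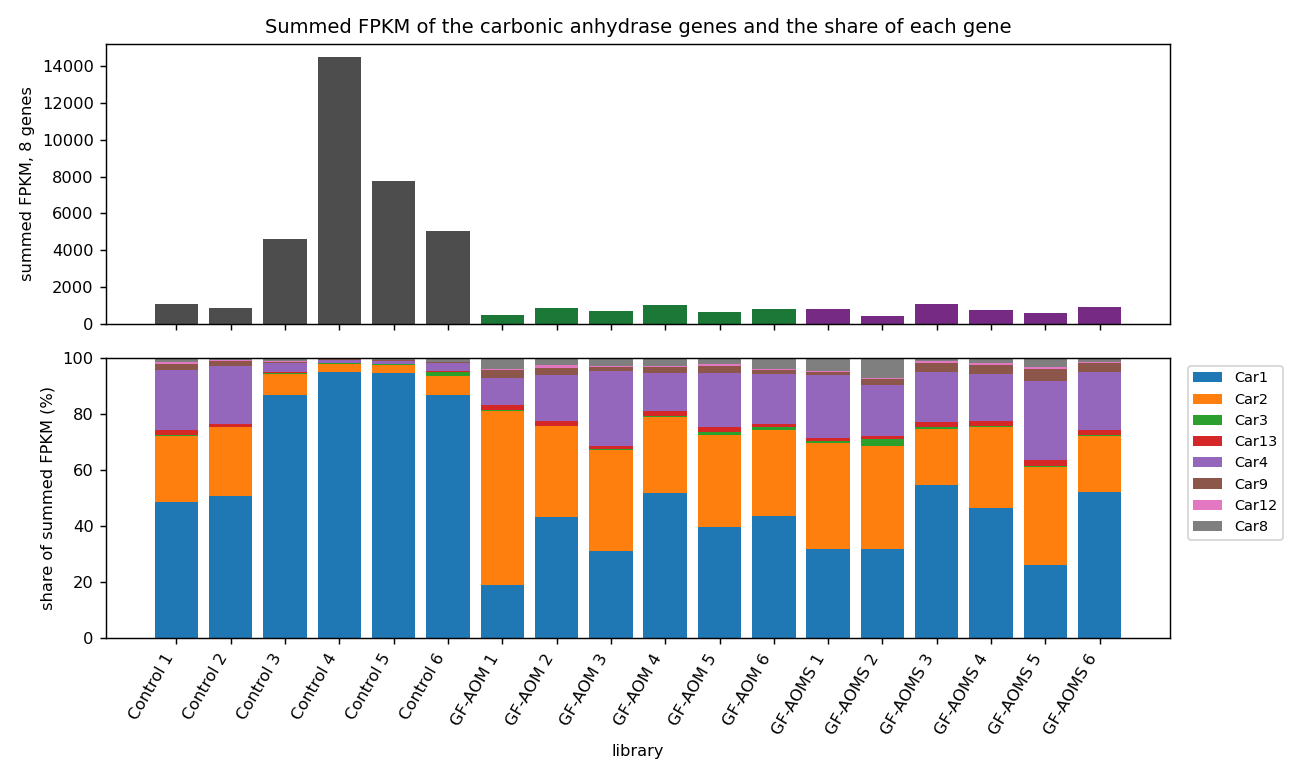
Summed FPKM of the 8 carbonic anhydrase genes in each library (top; grey Control, green GF-AOM, purple GF-AOMS) and the share of that sum from each gene in percent (bottom). Car1 fills 86.9% to 95.01% of the sum in Control replicates 3 to 6 and at most 54.7% elsewhere.

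Differences between groups were tested with edgeR's quasi-likelihood test on the counts of all 18 libraries, with Benjamini-Hochberg adjustment over all 10897 genes and a call at adjusted p under 0.05. In GF-AOM against Control no member was called, at a background of 0.00918% of genes called. Car1 was 3.93 lower on the log2 scale (SE 0.70, adjusted p = 0.0638). Car3 differed by -2.49 (SE 0.83) and Car12 by -1.05 (SE 0.35), each at adjusted p = 0.196. Car9, Car8, Car13, Car2 and Car4 differed by -0.46, -0.45, -0.36, -0.11 and -0.07. All 8 values were negative, with a median of -0.45 beside -0.004 over all genes, of which 50.51% were negative. At unadjusted p under 0.05 there were 4 members (Car1, Car3, Car12 and Car9), beside 15.7% of all genes.

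In GF-AOMS against Control, Car1 was the only member called, at 0.734% of genes called (0.624% called lower). Car1 fell by 3.91 on the log2 scale (SE 0.70, edgeR adjusted p = 0.0304), a 15.02-fold lower fitted mean, with a 95% interval of -5.40 to -2.42. The groups overlapped through Control replicates 1 and 2. The call was kept in 10 of the 18 fits that each left out 1 library. It was lost without Control replicate 3, 4 or 6, or GF-AOMS replicate 1, 2, 4, 5 or 6, at adjusted p from 0.0607 to 0.0884. Car12 differed by -1.16 (SE 0.35, adjusted p = 0.126) and Car3 by -2.28 (SE 0.82, adjusted p = 0.203). Car8, Car2, Car13 and Car9 differed by -0.52, -0.43, -0.34 and -0.07, and Car4 by 0.08. The members' median was -0.47 beside 0.006 over all genes, and 3 were under an unadjusted p of 0.05 (Car1, Car3 and Car12), beside 16.2% of genes. Both comparisons share the Control libraries.

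Other fits moved the calls in both directions. The call of Car1 in GF-AOMS against Control was lost in a fit of those 2 groups alone (edgeR adjusted p = 0.0854), with a replicate block (edgeR adjusted p = 0.0547) and with limma on log2(FPKM + 1) (adjusted p = 0.0726) and log2(FPKM + 0.1) (adjusted p = 0.0792). DESeq2 called Car1 in GF-AOM against Control (-3.92, adjusted p = 9.63e-08), beside 2.61% of genes. In GF-AOMS against Control it called Car1 and also Car12, which fell by 1.15 (DESeq2 adjusted p = 0.0342), beside 3.44% of genes. Without Control replicate 1, edgeR called Car1 in both comparisons, beside 0.413% and 0.89% of genes. Without Control replicate 2, the library with the lowest Car12 and Car3 of its group, edgeR called Car1 in both comparisons (-4.17 and -4.15) and Car12 in both (-1.25 and -1.36), beside 3.27% and 4.52% of genes.

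Those differences rested on Control replicates 3 to 6. With a term in the model for the libraries with Hoxa13 under 10 CPM, Car1 differed by -0.65 (SE 0.54) in GF-AOM and by -0.63 (SE 0.54) in GF-AOMS against Control, and neither was called. Leaving those 4 libraries out gave -0.65 (SE 0.49) and -0.63 (SE 0.50). Car12 went to -0.02 and -0.14 with the term, and Car13 stood at -0.25 and -0.23. Car2 was at 0.19 and -0.13, Car4 at -0.58 and -0.44 and Car9 at -0.27 and 0.12, so that Car2 in GF-AOM and Car4 and Car9 in GF-AOMS changed direction. Car3 and Car8 turned to the other direction, Car3 at 1.02 (SE 0.93) and 1.23 (SE 0.95), Car8 at 1.24 (SE 0.58) and 1.17 (SE 0.58), all uncalled at adjusted p of 0.9998 to 1. In these fits the background was 0.00918% of genes called in GF-AOM and 0.0% in GF-AOMS against Control. Only 2 Control libraries then carry the group, and the group cannot be told apart from other traits of those 2.

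**Figure D3:**
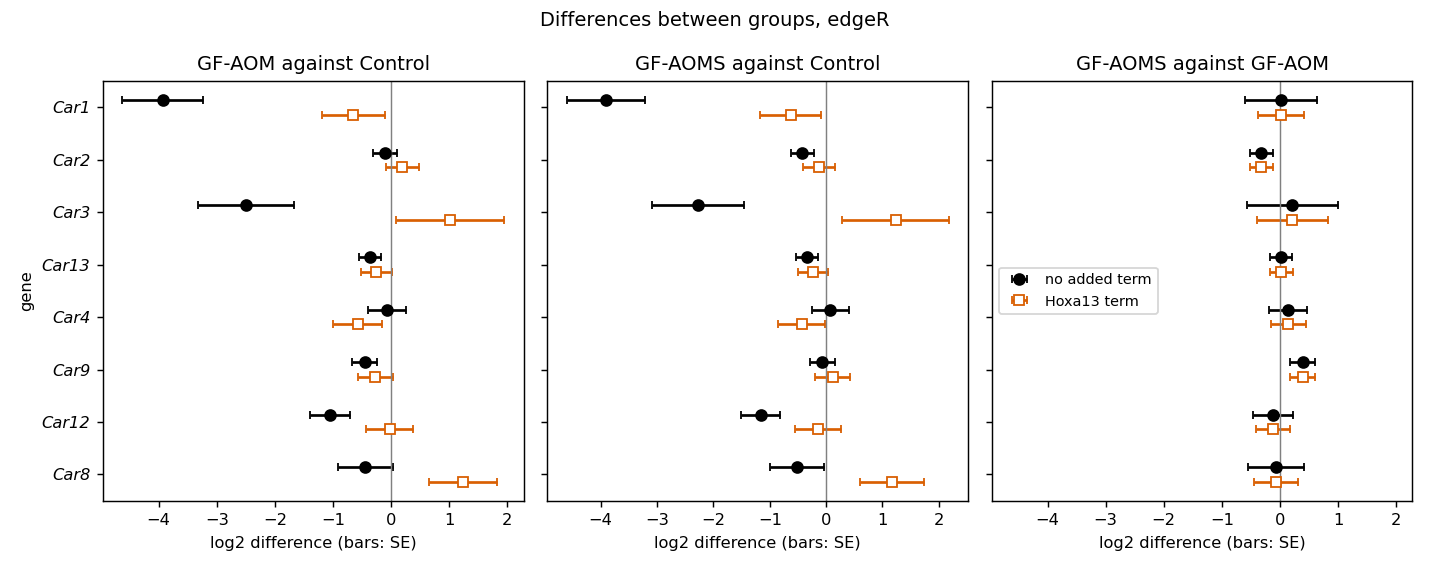
Fitted log2 differences with their SE (horizontal axis) for the 8 genes in the 3 comparisons, without an added term (black circles) and with a term for libraries with Hoxa13 under 10 CPM (open orange squares). Car1 moves from -3.93 to -0.65 in GF-AOM and from -3.91 to -0.63 in GF-AOMS against Control, while the smoke comparison at the right lies between -0.32 and 0.39 for every gene.

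Markers of the cell types in the tissue were read beside Car1. Surface colonocyte markers (8 of 8 measured), from the cells in which Car1 is abundant, summed to 2811 to 5277 CPM in Control, 1351 to 3122 CPM in GF-AOM and 1824 to 2741 CPM in GF-AOMS. Of these, Cdhr5, a brush-border cadherin, fell by 1.34 in GF-AOMS against Control (edgeR adjusted p = 0.0304), and the others were not called. The call of Cdhr5 was lost in 9 of the 18 fits without 1 library (without Control replicate 3, 4, 5 or 6, or GF-AOMS replicate 1, 2, 4, 5 or 6). It was also lost in the fit of the 2 groups alone (adjusted p = 0.0967), without TMM scaling, with limma and with the Hoxa13 term, where its difference was -0.81 (SE 0.33). The replicate block kept it (edgeR adjusted p = 0.0393). DESeq2 called Cdhr5 in GF-AOM and in GF-AOMS against Control (adjusted p = 0.000404 and 0.000236). Without Control replicate 1 or 2, edgeR called Cdhr5 in GF-AOM against Control as well (adjusted p = 0.0423 and 0.00716). In GF-AOM against Control 5 of the 8 markers were negative (median -0.52), and 6 of 8 in GF-AOMS (median -0.57). The positive ones were Slc26a3, the apical chloride-bicarbonate exchanger, at 0.22 and 0.32, Aqp8, a water channel, at 0.39 and 0.20, and in GF-AOM Guca2b, uroguanylin, at 0.20. Without the 4 Control libraries the medians were -0.58 and -0.58, with 7 and 6 of 8 negative. Aqp8 was then at -0.58 and -0.77, Slc26a3 at -0.08 and 0.02, and Guca2b at 0.72 and 0.12. The highest sum of the 8 markers, 5277 CPM, was in Control replicate 4, which had the highest Car1. Their other sums in Control replicates 3 to 6 were 2958 to 3096 CPM, between the 2811 and 3878 CPM of replicates 2 and 1, while Car1 was at 5335 CPM or more in each of the former and at 727.7 and 688.7 CPM in the latter. In bulk tissue, fewer cells of a type and less RNA per cell cannot be told apart, and the part of the surface cells in the Car1 difference was not tested.

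No marker of smooth muscle, goblet cells or the epithelium as a whole was called in either comparison with Control. Smooth muscle markers were higher in value in 5 of 5 in both comparisons, with medians of 0.54 in GF-AOM and 0.87 in GF-AOMS against Control. They summed to 1329 to 3932 CPM in Control, 3070 to 4945 CPM in GF-AOM and 1791 to 10210 CPM in GF-AOMS. Goblet cell markers were positive in 4 of 5 in both, with medians of 0.50 and 0.58, at 8543 to 21920, 9146 to 24520 and 10780 to 24930 CPM. The 5 epithelial markers were negative in 4 of 5 in both, with medians of -0.38 and -0.30, at 6863 to 10400, 4911 to 6964 and 5584 to 7752 CPM. Without the 4 Control libraries the smooth muscle medians were 0.12 and 0.31, the goblet cell medians 0.073 and -0.22, and the epithelial medians -0.40 and -0.31. The part of these cells in the members' differences was not tested.

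Red blood cells, which also hold Car1 and Car2, were read from haemoglobin genes (4 of 7 markers measured; the others, Alas2 and Slc4a1 among them, are not analysed here). They summed to 95.3 to 470.1 CPM in Control, 78.6 to 900.0 CPM in GF-AOM and 125.0 to 872.9 CPM in GF-AOMS. The 2 highest sums, 900.0 and 872.9 CPM, were in GF-AOM replicate 1 and GF-AOMS replicate 2, where Car1 was at 136.5 and 283.8 CPM. Control replicate 5 had one of the lowest haemoglobin sums, 95.3 CPM, and a Car1 level of 9115 CPM. The sums in Control replicates 3, 4 and 6, also high in Car1, were 470.1, 420.2 and 373.5 CPM. Those in Control replicates 1 and 2 were 177.8 and 390.9 CPM. No haemoglobin gene was at 0 in any library, and the part of red blood cells in the Car1 and Car2 levels was not tested.

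The nearest genes of the table on either side of the chromosome 3 cluster were compared with it. E2f5, a cell-cycle transcription factor on the Car13 side, differed by -0.24 in GF-AOM and -0.26 in GF-AOMS against Control. Rbis, between E2f5 and Car13, differed by 0.38 and 0.48. Ythdf3, the next gene of the table on the Car2 side but 1282 kb past Car2, differed by -0.10 in both. None of these was called. Without the 4 Control libraries E2f5 was at -0.30 and -0.32, Rbis at 0.037 and 0.14, and Ythdf3 at 0.00090 and 0.0094. Within the cluster the 4 genes differed by -0.36 (Car13), -3.93 (Car1), -2.49 (Car3) and -0.11 (Car2) in GF-AOM against Control.

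The smoke comparison, GF-AOMS against GF-AOM, is the 1 contrast whose meaning the conflicting labels leave intact. No member was called there, at 0.0% of genes called by edgeR. No member was under an unadjusted p of 0.05 either, beside 1.09% of all genes, and DESeq2 called no member and 0.0275% of genes. Car1 differed by 0.02 (SE 0.62), with a 95% interval of -1.30 to 1.34, which holds more than a doubling in either direction. The largest differences relative to their error were Car9 at 0.39 (SE 0.22, interval -0.07 to 0.85) and Car2 at -0.32 (SE 0.20, interval -0.75 to 0.11). Car3 differed by 0.22 (SE 0.79), Car4 by 0.14 (SE 0.33), Car12 by -0.11 (SE 0.35), Car8 by -0.07 (SE 0.47) and Car13 by 0.02 (SE 0.19). The members' median was 0.02 beside 0.01 over all genes. No member separated these 2 groups without overlap, at a background of 0.0642% of genes. The same count was 0 of 8 in GF-AOM against Control (background 0.762%) and 0 of 8 in GF-AOMS against Control (background 0.798%).

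Hoxb13 also varied among the 12 GF libraries, from 19.8 to 292 CPM, which gave a comparison that uses no Control library. The slope of each gene on log2 CPM of Hoxb13 was fitted with edgeR, with group as a covariate, and is given per doubling of Hoxb13. No member was called, at 0.0% of genes called. The slope of Car1 was -0.02 (SE 0.20). It was -0.41 (SE 0.28) without GF-AOMS replicate 2, the library with the lowest Hoxb13, and stayed uncalled. Car8 had a slope of -0.44 (SE 0.14, adjusted p = 0.200) and Car3 of -0.56 (SE 0.23, adjusted p = 0.217). These were the 2 members under an unadjusted p of 0.05, beside 22.0% of all genes. Without GF-AOMS replicate 1 the slope of Car8 was called, at -0.49 (adjusted p = 0.0347), beside 0.376% of genes. Car9, Car4, Car13, Car12 and Car2 had slopes of 0.17, 0.09, 0.07, -0.01 and -0.04.

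The slope depended on the position gene chosen. With Hoxa13 in place of Hoxb13, Car3 was called at -2.89 (edgeR adjusted p = 0.0294) and Car1 stood at 0.39 (SE 0.78). In that fit 26.0% of all genes were called, so 1 of 8 members is no more than the background.

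**Figure D4:**
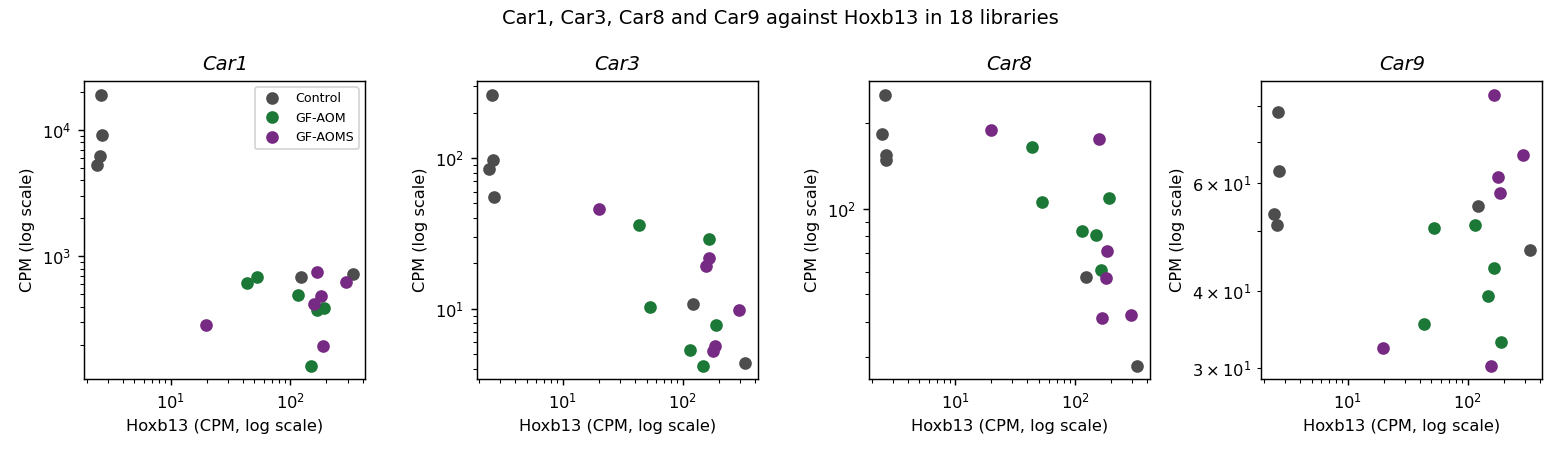
CPM of Car1, Car3, Car8 and Car9 (vertical axes, log scale) against CPM of Hoxb13 (horizontal axis, log scale), 1 point per library, coloured by group. The 4 Control points at 2.43 to 2.65 CPM of Hoxb13 carry the high Car1 values, and within the GF libraries the fitted slope of Car1 was -0.02 per doubling (SE 0.20).

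Members also varied together within the 12 GF libraries, given here as Spearman's rho of log2 CPM. These points share their scaling, and the libraries differed in their share of ribosomal protein counts, so they are descriptions. Car1, Car12 and Car13 formed one set, with rho of 0.86 (Car1 and Car13), 0.83 (Car1 and Car12) and 0.83 (Car12 and Car13). Car13 also went with Car9, at 0.73. Car2 and Car8 formed another, at 0.73, and ran against Car9, with rho of -0.81 (Car2 and Car9) and -0.91 (Car8 and Car9). Car3 and Car1, close on the chromosome and alike across the Control libraries, had a rho of 0.23 here.

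The ribosomal share moved with the same members. Its rho was -0.83 with Car9, -0.73 with Car13, -0.73 with Car12 and -0.50 with Car1, against 0.69 with Car8 and 0.52 with Car2. It ranged from 6.47% to 23.9% in these libraries, and its part in the pattern was not tested.

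**Figure D5:**
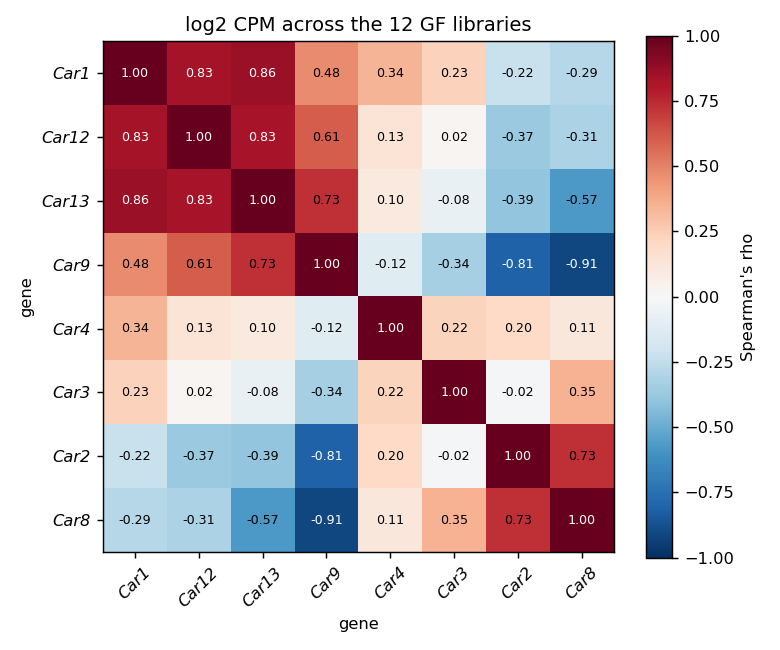
Spearman's rho of log2 CPM between each pair of the 8 genes (both axes) across the 12 GF libraries, from blue (negative) to red (positive). Car1, Car12 and Car13 form a block at 0.83 to 0.86, and Car9 is opposed to Car8 (-0.91) and Car2 (-0.81).

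The genes whose levels were most like Car1 in the 12 GF libraries were ranked by the same rho. The ranking held 9444 protein-coding genes outside the family, with clone names, pseudogenes and immunoglobulin segments left out. The 5 highest were Endod1 (0.96), Plekhg6 (0.92), Arhgef19 (0.92), Cdh17 (0.91), a cadherin of the intestinal epithelium, and Rfk (0.91), riboflavin kinase. The 5 lowest were Gatd3a and Zfp932 (both -0.83), Prpf39 (-0.82), Tcp1 (-0.80), a chaperonin subunit, and Rtcb (-0.80), an RNA ligase. Against Control, the 5 most alike differed by -0.27 (Arhgef19) to -1.18 (Plekhg6) in GF-AOMS, each uncalled and each smaller in size than the -3.91 of Car1. Without the 4 Control libraries they ran from 0.054 (Arhgef19) to -0.63 (Plekhg6), beside -0.63 for Car1.

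Genes of bicarbonate, chloride and proton transport, in which carbonic anhydrases take part, were read from a list of 29, 23 of them measured. Most encode transporters or channels (bicarbonate, chloride and proton exchangers, sodium, potassium and water channels among them), while Clca1, Slc9a3r1 and Bsg do not. None of the 23 was called in any comparison. Their median difference was -0.08 in GF-AOM against Control, 0.06 in GF-AOMS against GF-AOM and -0.05 in GF-AOMS against Control, with 13 of 23 negative in the last. The 3 with the smallest p in GF-AOMS against Control were Slc9a2, an apical sodium-proton exchanger, at -0.92 (SE 0.27), Slc4a2, a basolateral chloride-bicarbonate exchanger, at -0.63 (SE 0.19), and Aqp4, a water channel, at 1.20 (SE 0.49). Their edgeR adjusted p-values were 0.117, 0.126 and 0.256. Without the 4 Control libraries they were at -0.27, -0.16 and 0.029. The medians of the 23 genes were then -0.13 in GF-AOM and 0.017 in GF-AOMS against Control.

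Car9 and Car12 are induced by hypoxia in many tissues, so genes of that response were read beside them. Of 16 listed genes 15 were measured, and none was called in any comparison. Their median was -0.01 in GF-AOM against Control, -0.02 in GF-AOMS against GF-AOM and -0.10 in GF-AOMS against Control. The 3 with the smallest p in the last were Slc2a1, a glucose transporter, at -0.39 (SE 0.13, adjusted p = 0.184), Ndrg1 at -0.63 (SE 0.26, adjusted p = 0.256) and Pgk1, a glycolytic enzyme, at 0.53 (SE 0.22, adjusted p = 0.259). Without the 4 Control libraries these were at -0.34, 0.22 and -0.0041, so that Ndrg1 and Pgk1 changed direction. The medians of the 15 genes were then 0.19 in GF-AOM and -0.0041 in GF-AOMS against Control. The summed level of the 15 genes was 3061 to 4286 CPM in Control, 3188 to 4300 CPM in GF-AOM and 3658 to 4068 CPM in GF-AOMS.

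ACGTG is a core bound by the hypoxia-inducible factors, whose best-known target in the family is Car9. The sequence before the RefSeq start of Car9 is shown with that motif in capitals. It is the 250 bases before the RefSeq start (GRCm38.p6, chr4:43506776-43507025, plus strand).
Car9: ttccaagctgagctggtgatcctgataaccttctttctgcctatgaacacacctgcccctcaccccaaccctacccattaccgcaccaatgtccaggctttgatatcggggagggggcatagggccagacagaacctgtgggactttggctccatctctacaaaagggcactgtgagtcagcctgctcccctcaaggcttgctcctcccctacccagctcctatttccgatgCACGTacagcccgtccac
The window holds 1 match, read as CACGT on this strand, 18 bases before the RefSeq start. The count table places the start of Car9 earlier, so that the last 60 bases of the window, the match among them, lie inside the gene as the table gives it. Both strands were searched for this motif alone, so that its 2 readings can overlap. Of 32851 promoter windows of the same length, 16.6% hold a match. The windows of Car12 and Car4 hold none, and RefSeq windows were matched for 3 of the 8 members.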

How the data were processed

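RNA of 18 mouse colorectal tissue libraries was counted per gene. Per the submitters' processing notes the authors used featureCounts, DESeq2 and build GRCm39; no source used here names the aligner or any version. The deposited whole-number read counts were tested, and the deposited FPKM values, computed by the authors from the same reads, describe levels per length. After division by the library total, 99.98% of count to FPKM ratios lay within 2% of the gene's median.

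Counts were fitted with edgeR 4.0.16 (R 4.3.3, TMM scaling, quasi-likelihood test, 2-sided, 15 residual degrees of freedom, no covariate). CPM are TMM-scaled, and log2 CPM used a prior count of 2. SE are the log2 difference over the square root of F. The fitting was tested on simulated data. Alternatives were limma 3.58.1 on log2(FPKM + 1) and log2(FPKM + 0.1), DESeq2 1.42.0, other scalings and filters, a replicate block, a term for Hoxa13 under 10 CPM, and leaving out libraries.

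Named were all members, the 5 genes most and 5 least like Car1, and of each list the called genes or the 3 of smallest p. The members, lists, tests and this rule were chosen with earlier results of these data known. Positions of the table match GENCODE M21 (GRCm38). A sequence window of 1 member is not reported here.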

Additional observations from a re-analysis of the deposited data

Results flagged for a closer look

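In 24 sets of 6 libraries (8 genes, 3 groups), the gap in CPM of the highest or lowest library to its neighbour was compared with the range of the set. It passed the Dixon limit of 0.625 in 2 sets, and chance alone flags about 1 in 20. Car3 in Control had a gap of 0.642 of the range, with replicate 6 the highest at 264.7 CPM and the next at 97.6 CPM. Without that replicate the Car3 difference was -1.72 in GF-AOM and -1.51 in GF-AOMS against Control, in place of -2.49 and -2.28. Car2 in GF-AOMS had a gap of 0.667, with replicate 1 the highest at 968.5 CPM and replicate 2 the next at 633.6 CPM.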

How the results depend on the processing

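In GF-AOMS against Control, Car1 was no longer called with a replicate block (-3.34, adjusted p = 0.0547), in a fit of the 2 groups alone (-3.90, adjusted p = 0.0854), or with limma on log2(FPKM + 1) and log2(FPKM + 0.1) (-3.25 and -3.25, adjusted p = 0.0726 and 0.0792); the number of members called was then 0 in each. It was also 0 with the Hoxa13 term (-0.63) and, chosen after seeing the data, without the 4 Control libraries (-0.63). DESeq2 called 2 members there (Car1, and Car12 at -1.15) and 1 in GF-AOM against Control (Car1, -3.92, adjusted p = 9.63e-08). The cause of these shifts was not tested. DESeq2 called 284 and 375 genes in these comparisons where edgeR called 1 and 80, and edgeR without Control replicate 2 called 356 and 493, then including Car12 (-1.25 and -1.36).

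Leaving out single libraries moved Car1 between -4.17 and -3.29 in GF-AOM against Control (called without Control replicate 1 or 2), between -4.15 and -3.27 in GF-AOMS against Control and between -0.17 and 0.18 in GF-AOMS against GF-AOM. Its slope on Hoxb13 moved between -0.41 and 0.053. Other ranges that crossed 0 were, in GF-AOM against Control, Car4 (-0.26 to 0.13) and Car2 (-0.20 to 0.043). In GF-AOMS against GF-AOM they were Car4 (-0.042 to 0.35), Car13 (-0.091 to 0.11), Car3 (-0.32 to 0.67), Car12 (-0.24 to 0.11) and Car8 (-0.38 to 0.13), and in GF-AOMS against Control Car4 (-0.10 to 0.21) and Car9 (-0.22 to 0.060). Of the slopes they were Car4 (-0.016 to 0.16), Car13 (-0.12 to 0.11), Car9 (-0.013 to 0.22) and Car12 (-0.30 to 0.048). Members called ranged over 0 to 2, 0 to 2, 0 to 0 and 0 to 1.

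With the Hoxa13 term or without the 4 libraries, values that changed direction were Car3 (1.02 and 1.02), Car2 (0.19 and 0.19) and Car8 (1.24 and 1.24) in GF-AOM, and Car3 (1.23 and 1.24), Car8 (1.17 and 1.18), Car4 (-0.44 and -0.44) and Car9 (0.12 and 0.12) in GF-AOMS against Control. Car12 in GF-AOMS against GF-AOM was 0.0018 with limma on log2(FPKM + 0.1). Slopes on Hoxb13 that changed direction were Car1 (0.091 with limma, 0.050 with the replicate block), Car2 (0.070 with limma) and Car12 (0.00042 with an FPKM filter, 0.081 with limma, 0.15 with the block). On Hoxa13, Car1 (0.39), Car4 (-0.70) and Car12 (0.56) changed direction, and 1 member was called.

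Same-numbered libraries deviated together (r over 0.1) in 2, 4 and 1 of 6 pairs (GF-AOM and Control, GF-AOMS and Control, GF-AOMS and GF-AOM), and 2, 7 and 0 of 12 libraries correlated best with their own number, so not every pair passed and the numbers were not taken as pairing the samples. The 7 of 12 in GF-AOMS and Control are a hint from the data, not the design.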
